A study of Mus musculus with 7 samples.

Results

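The genes described here present antigens on major histocompatibility complex (MHC) molecules. They are the 4 class II genes H2-Aa, H2-Ab1, H2-Eb1 and Cd74, the class I genes H2-K1, H2-D1 and B2m, and 3 genes that prepare and load class I peptides, Tap1, Tapbp and Psmb8. They were chosen by symbol, as genes with at least 1 probe set that names a single gene, and make up 10 of the 12393 genes named in this way. Each is represented by its brightest probe set, the one with the highest mean over all arrays, and its other probe sets are given beside it.

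Gliomas were raised in Nestin-tvA mice of a mixed C57/BL6 and FVB/N background, all p16-/-, by injecting an RCAS virus with PDGFB and GFP into the brain at postnatal day 1 to 3. RCAS is an avian virus that enters mouse cells only through its receptor tv-A, made here by cells that express Nestin, a protein of neural stem and progenitor cells. Tumours were collected when mice showed symptoms or else at 12 weeks, and GFP+DAPI- cells, living cells with the viral marker, were sorted for 1 Affymetrix array per sample. The groups differ in Ptprd, a receptor tyrosine phosphatase, and held 3 Ptprd-/- arrays, called null here, 2 Ptprd+/- arrays, called heterozygous, and 2 Ptprd+/+ arrays, called wild type. All 3 groups share the loss of p16 and consist of cells sorted from tumours, so none is normal brain. The labels call the arrays biological replicates and give neither the mice behind each nor its time of collection, strain share or H2 haplotype.

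Class I molecules, a heavy chain bound to beta-2 microglobulin, are made by most nucleated cells and show peptides cut by the proteasome to CD8+ T cells. Class II molecules pair an alpha and a beta chain, show peptides from endosomes to CD4+ T cells, and are made mainly by dendritic cells, B cells and macrophages, microglia included. Interferon-gamma raises both pathways in many cell types, class II through the coactivator Ciita, and cells of the resting brain show little of either. On GRCm38.p6, 8 of the 10 genes lie in the H2 region of chromosome 17, from Tapbp at chr17:33919478-33929290 through H2-K1 at chr17:33996012-34000619, Tap1 at chr17:34187556-34197225, Psmb8 at chr17:34198195-34201454, H2-Ab1 at chr17:34263227-34269418, H2-Aa at chr17:34282744-34287823 and H2-Eb1 at chr17:34305867-34316674 to H2-D1 at chr17:35263094-35267497. B2m is at chr2:122147687-122153082.

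Promoters of class I and class II genes carry different elements, and 4 are shown because they hold the textbook ones. Class II promoters have an X and a Y box. Class I heavy chain promoters have an enhancer A, which binds NF-kappaB, beside an interferon response element. Each line gives the 200 bases before the transcription start on the strand of the gene, 5′ to 3′, from RefSeq on GRCm38.p6, and capitals mark the motif matches. The windows are chr17:34305667-34305866 on the plus strand for H2-Eb1, chr17:34287824-34288023 on the minus strand for H2-Aa, chr17:35262894-35263093 on the plus strand for H2-D1 and chr2:122147487-122147686 on the plus strand for B2m.
H2-Eb1: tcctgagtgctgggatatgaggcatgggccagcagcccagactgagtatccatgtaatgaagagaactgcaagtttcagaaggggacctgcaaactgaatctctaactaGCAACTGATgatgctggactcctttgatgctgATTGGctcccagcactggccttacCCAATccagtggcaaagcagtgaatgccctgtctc
H2-Aa: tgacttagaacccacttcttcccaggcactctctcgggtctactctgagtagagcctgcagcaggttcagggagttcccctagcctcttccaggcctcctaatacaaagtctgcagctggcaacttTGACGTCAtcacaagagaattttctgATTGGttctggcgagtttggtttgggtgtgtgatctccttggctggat
H2-D1: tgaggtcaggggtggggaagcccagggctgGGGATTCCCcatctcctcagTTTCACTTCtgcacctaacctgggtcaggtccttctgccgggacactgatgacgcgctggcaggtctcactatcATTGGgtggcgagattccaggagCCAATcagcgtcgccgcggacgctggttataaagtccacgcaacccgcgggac
B2m: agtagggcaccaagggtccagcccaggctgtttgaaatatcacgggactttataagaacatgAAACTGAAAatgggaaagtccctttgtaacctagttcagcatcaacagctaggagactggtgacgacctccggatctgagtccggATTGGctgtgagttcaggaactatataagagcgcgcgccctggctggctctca

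The motifs were searched on both strands and were chosen after these sequences had been seen, so their presence is a description. H2-Eb1 holds GCAACNGAT, letters of the X box, which 0.286% of 32851 promoters hold in windows of this length. H2-Aa holds TGACGTCA, the cyclic AMP response element that the second part of the X box resembles, found in 1.47% of promoters. H2-D1 holds GGGATTCCC, the centre of the enhancer A, present in 0.213%, followed by TTTCNNTTC, an interferon response element core, present in 5% of promoters. Both motifs also lie in the windows of H2-K1. B2m holds TTTCNNTTT, the core of the longer interferon-stimulated response element, read on the opposite strand as AAACTGAAA and present in 7.21%. The pentamer CCAAT of the Y box, in 29.3% of promoters, lies in 6 of the 8 members with a promoter in the table, H2-Eb1, H2-Aa, H2-K1, H2-D1, B2m and Tapbp. The windows of Tap1 and Psmb8 hold none of the 6 motifs. No matches of different motifs overlapped in these windows. H2-Ab1 and Cd74 are the members without an entry.

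The arrays had medians of 6.62 to 6.71 on the log2 scale, and all 10 members lay above the 30th percentile of every array, which was 4.82 to 4.95. Ptprd, the targeted gene, averaged 9.50 in null, 9.50 in heterozygous and 10.87 in wild type arrays. It was lower in heterozygous than in wild type tumours by limma's test (adjusted p = 0.0311), the difference of null from wild type was -1.37 (limma's adjusted p = 0.883), and that of null from heterozygous was 0.00 (95% interval -0.61 to 0.61). Whether its probe set lies in the deleted part is not given in the sources used here. Null replicate 1 and heterozygous replicate 1 carried both Xist, the X inactivation transcript (12.73 and 11.16), and the Y-linked Eif2s3y (8.69 and 9.28), while on each of the other 5 arrays one of the pair was at 5.40 or below. Without both arrays Ptprd differed from wild type by -1.43 in null and by -1.30 in heterozygous tumours, and limma called 0 genes of the whole table in any pair of genotypes, so the calls given here were all made with them. Values without both are given for the members' differences printed here that moved by more than 1.5 times and for those of other called genes that did so.

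The class II genes were higher on heterozygous replicate 1 than on any other array, and lowest on wild type replicate 1 or null replicate 3. H2-Aa, the alpha chain of the I-A molecule, was at 7.38, 8.38 and 6.38 on null arrays, 9.87 and 7.64 on heterozygous arrays and 6.07 and 6.94 on wild type arrays, in log2 units. Both heterozygous arrays lay above both wild type arrays, and the null arrays overlapped both groups. H2-Ab1, the beta chain of I-A, was at 7.52, 7.87 and 6.72 on null, 9.45 and 8.15 on heterozygous and 6.601 and 7.02 on wild type arrays. Here the heterozygous values lay above all 5 others, and a null array sat between the wild type arrays. H2-Eb1, the beta chain of the I-E molecule, was at 7.27, 7.75 and 5.995 on null, 9.07 and 7.02 on heterozygous and 6.03 and 6.79 on wild type arrays. Cd74, the invariant chain that holds class II molecules until they reach endosomes, was at 5.77, 6.39 and 5.36 on null, 7.27 and 5.72 on heterozygous and 5.28 and 5.68 on wild type arrays. For both, the lower heterozygous array lay just above the upper wild type array and below 2 of the 3 null arrays. In RNA from sorted cells, fewer cells of a type and less RNA per cell cannot be told apart.

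The class I heavy chains and B2m were also highest on heterozygous replicate 1, but wild type replicate 2 was level with or above heterozygous replicate 2. H2-K1, a class I heavy chain, was at 11.40, 11.66 and 10.73 on null, 11.99 and 11.40 on heterozygous and 10.16 and 11.40 on wild type arrays. H2-D1, another heavy chain, was at 11.52, 11.72 and 10.87 on null, 12.12 and 11.50 on heterozygous and 10.45 and 11.66 on wild type arrays. B2m, the light chain shared by all class I molecules, was at 12.84, 12.96 and 12.30 on null, 13.25 and 12.69 on heterozygous and 11.86 and 12.75 on wild type arrays. For all 3 genes wild type replicate 1 was the lowest of all arrays. The range over the arrays was 1.84 for H2-K1, 1.68 for H2-D1 and 1.39 for B2m, against 3.80 for H2-Aa, 2.85 for H2-Ab1, 3.07 for H2-Eb1 and 1.99 for Cd74.

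Among the genes that prepare class I peptides, Psmb8 and Tap1 varied over the arrays more than the heavy chains and Tapbp varied least. Psmb8, the immunoproteasome subunit that replaces a constitutive one under interferon-gamma, was at 9.31, 9.74 and 7.98 on null, 10.89 and 9.77 on heterozygous and 7.74 and 8.96 on wild type arrays. Tap1, a subunit of the transporter that brings peptides into the endoplasmic reticulum, was at 7.74, 7.86 and 7.03 on null, 8.98 and 7.98 on heterozygous and 6.75 and 7.29 on wild type arrays. For both, the heterozygous arrays lay above every null and wild type array. Tapbp, or tapasin, which joins the class I molecule to the transporter, was at 7.77, 8.18 and 7.86 on null, 8.24 and 7.99 on heterozygous and 7.82 and 8.14 on wild type arrays. Its whole range was 0.47, and all 3 genotypes overlapped.

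**Figure D1:**
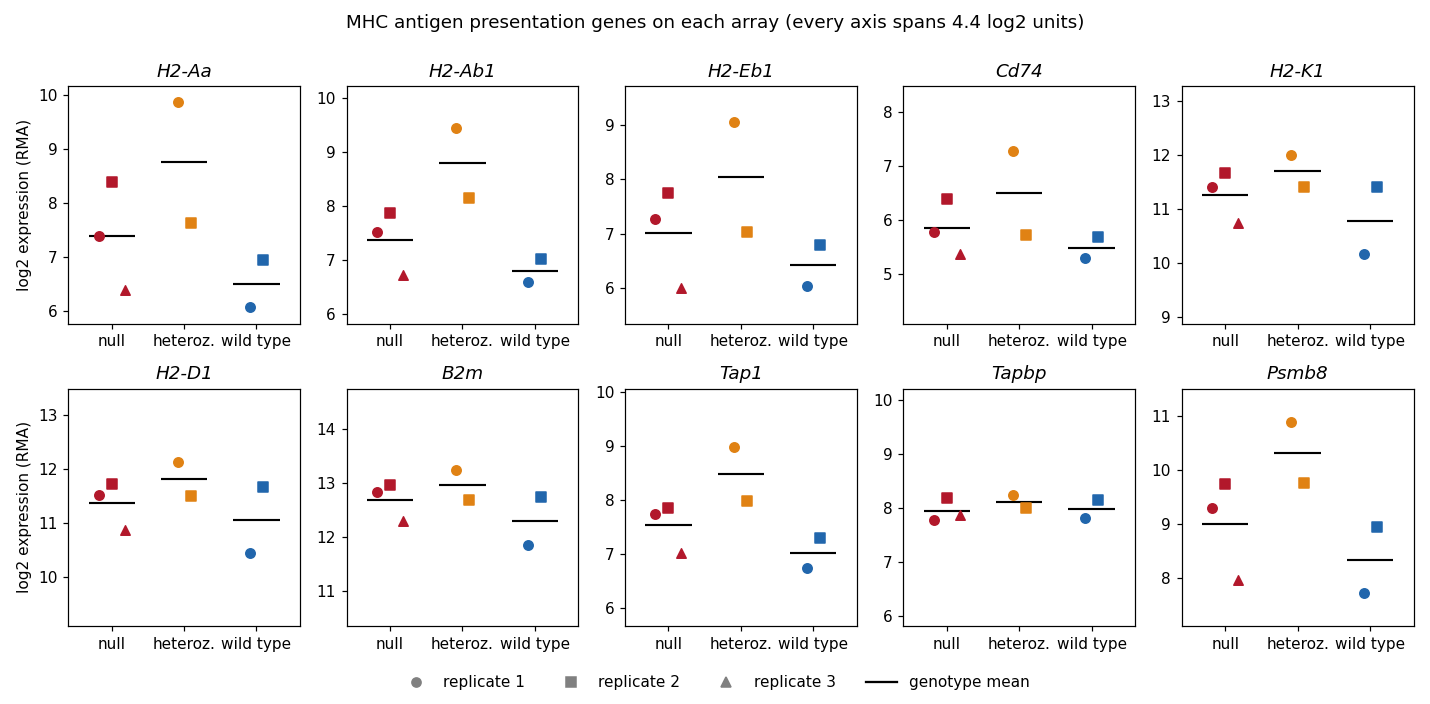
Log2 expression (RMA, y axis) of the 10 genes on each array by Ptprd genotype (x axis: null, heterozygous as heteroz., wild type). Marker shapes are the labels' replicate numbers, black lines are genotype means, and every panel spans the same number of log2 units. The circle of heterozygous replicate 1 is the highest point in all 10 panels, and Tapbp has the narrowest range, 0.47.

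The comparison of heterozygous with wild type tumours asks what the loss of 1 Ptprd allele goes with. H2-Ab1 was the only member called. It was higher in heterozygous arrays by 1.99 ± 0.49 on the log2 scale, or 3.99-fold (SE, 95% interval 0.84 to 3.15, limma's adjusted p = 0.0478, n = 2 and 2). Thus 1 of 10 members passed the threshold of 0.05, adjusted over all 9243 genes tested, where 10.1% of all genes were called and 4.2% were called higher. All 10 differences were above 0, against 44.8% of all genes, and 6 were above 1, against 4.07%. The median difference of the members was 1.24, and that of all genes tested was -0.04. The groups did not overlap for 6 members, H2-Aa, H2-Ab1, H2-Eb1, Cd74, Tap1 and Psmb8, where 61.3% of all genes had no overlap and 26.2% had none with heterozygous higher.

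The adjusted p was next smallest for Tap1, at 1.46 ± 0.40 (adjusted p = 0.0618), and for Psmb8, at 1.98 ± 0.67 (adjusted p = 0.102). H2-Aa had the largest difference, 2.25 ± 0.83, and an adjusted p of 0.127. The interval of H2-Aa ran from 0.28 to 4.22, that of Psmb8 from 0.41 to 3.55 and that of Tap1 from 0.52 to 2.397. These 3 and H2-Ab1 were the 4 members with an unadjusted p under 0.05, which 29.9% of all genes had. H2-Eb1 differed by 1.63 and Cd74 by 1.02, with adjusted p of 0.202 and 0.234. The heavy chains differed by less, 0.92 for H2-K1 and 0.76 for H2-D1 (adjusted p = 0.226 and 0.297), B2m by 0.66 (adjusted p = 0.249) and Tapbp by 0.13 (interval -0.30 to 0.57). Heterozygous replicate 1 set much of these sizes. With it left out, alone or together with null replicate 1, the difference was 1.13 for H2-Aa, 0.61 for H2-Eb1 and 0.24 for Cd74. In the class I genes it was then 1.42 for Psmb8, 0.96 for Tap1, 0.62 for H2-K1, 0.45 for H2-D1, 0.39 for B2m and 0.01 for Tapbp. With heterozygous replicate 2 left out instead, it was 3.36 for H2-Aa, 2.66 for H2-Eb1 and 1.79 for Cd74. The call of H2-Ab1 rests on few arrays. Its difference was 1.34 once heterozygous replicate 1 was left out (adjusted p = 0.21), also where null replicate 1 was left out with it (adjusted p = 0.283). The adjusted p was 0.178 after removal of wild type replicate 1 and 0.168 after removal of wild type replicate 2. With heterozygous replicate 2 removed, H2-Ab1 passed and so did Tap1, at 1.96 (adjusted p = 0.0441). The median of the members was 0.61 with the array heterozygous replicate 1 left out, alone or together with null replicate 1, and 1.87 with heterozygous replicate 2 left out. The call was also lost when null replicate 1 (adjusted p = 0.0758) or null replicate 2 (0.0543) was left out, although the difference then stayed at 1.99.

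Null tumours were set against wild type tumours to ask what the loss of both alleles goes with. No member passed the threshold. This does not show that their levels were equal, since limma called no gene here, not even Ptprd at -1.37. Of the 10 members 0 were called and 0 had an unadjusted p under 0.05, where limma called 0% of all genes and 5.14% had an unadjusted p under 0.05. The differences were above 0 for 9 members, against 49.8% of all genes, with a median of 0.50 against -0.00075 for all genes. They ran from -0.04 for Tapbp to 0.88 ± 0.76 for H2-Aa, with adjusted p of 0.894 to 0.978. H2-Ab1 was at 0.56, with an interval from -0.49 to 1.62. For Psmb8 the difference was 0.66 (interval -0.77 to 2.09). The groups were apart in 0 of 10 members, where 21.7% of all genes had no overlap. Without wild type replicate 1 the median was 0.10, and H2-D1, H2-K1 and B2m were at -0.29, -0.13 and -0.05, against 0.32, 0.49 and 0.39 with all arrays. The median was 0.88 without wild type replicate 2, 0.27 without null replicate 2, 0.77 without null replicate 3 and 0.42 without null replicate 1.

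The comparison of null with heterozygous tumours asks what the loss of the second allele goes with, and it shares its arrays with both comparisons above. No member was called here either (0 of 10, where 8.96% of all genes were called). All 10 members had differences below 0, where 57% of all genes were above 0, with a median of -0.80 against 0.04 for all genes tested. H2-Ab1 was at -1.43 ± 0.45 (adjusted p = 0.0879) and Tap1 at -0.94 ± 0.36 (adjusted p = 0.144), and these 2 of 10 had an unadjusted p under 0.05, against 28.5% of all genes. H2-Aa was at -1.37 and Psmb8 at -1.32, with adjusted p of 0.286 and 0.206. H2-Ab1, Tap1 and Psmb8 were the 3 members whose groups did not overlap, where 43.7% of all genes had no overlap and 17.9% had none with null lower. With heterozygous replicate 1 left out the median was -0.13, or -0.205 with null replicate 1 left out too, and Cd74 was at 0.12, against -0.66 with all arrays. Without both arrays H2-Aa was at -0.26, H2-Ab1 at -0.86, Tap1 at -0.54, Psmb8 at -0.91 and Cd74 at 0.15. H2-Eb1 moved from -1.04 with all arrays to -0.15 without both, H2-K1 from -0.43 to -0.20 and B2m from -0.27 to -0.06. The median was -1.43 without heterozygous replicate 2 and -0.48 without null replicate 3. Limma's F test for any difference among the 3 genotypes called 0 of 10 members, where 5.65% of all genes were called, with adjusted p from 0.0888 for H2-Ab1 to 0.736 for Tapbp. An unadjusted F test p under 0.05 was found for 2 of 10, H2-Ab1 and Tap1, and for 26.5% of all genes.

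**Figure D2:**
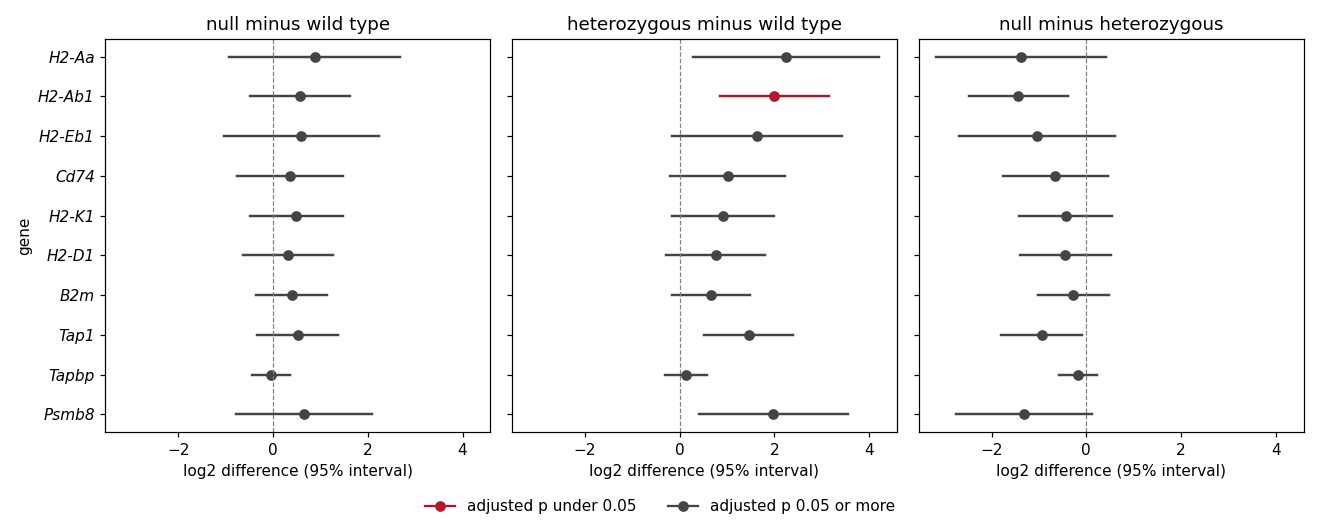
Log2 difference (x axis) of each gene (y axis) with its 95% interval from limma, in 3 panels for null minus wild type, heterozygous minus wild type and null minus heterozygous. The red point is H2-Ab1 in heterozygous against wild type, 1.99, the only one with an adjusted p under 0.05. The intervals of H2-Aa, Tap1 and Psmb8 in that panel also lie above 0.

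The members varied together from array to array, within genotypes as well as between them. Heterozygous replicate 1 was the highest array for 10 of 10 members, as it was for 20% of all genes. Wild type replicate 1 was the lowest for 8 of 10, against 11.7% of all genes, and second lowest for the other 2. Null replicate 3 was second lowest for 8 members and the lowest of the null arrays for 9, which held for 25.3% of all genes. Null replicate 2 was second highest for 7 members.

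Each genotype thus had a higher and a lower array for these genes. Heterozygous replicate 1 lay above heterozygous replicate 2 for all 10 members, against 43% of all genes, by 0.25 for Tapbp to 2.23 for H2-Aa, which is 4.69-fold. H2-Eb1 was 4.14-fold, Cd74 2.92-fold and Psmb8 2.18-fold higher on heterozygous replicate 1 than on heterozygous replicate 2. Wild type replicate 2 lay above wild type replicate 1 for all 10 members, against 50.6% of all genes, by 0.33 for Tapbp to 1.24 for H2-K1. In 6 of 10 members, H2-Eb1, Cd74, H2-K1, H2-D1, B2m and Tapbp, the arrays of 1 genotype spread wider than the 3 genotype means. The share of the variation between arrays that lay within genotypes was 27.4% for H2-Ab1, 32.3% for Tap1, 42.8% for Psmb8 and 48.5% for H2-Aa. It was 59.4% for H2-Eb1, 62.5% for H2-K1, 62.9% for Cd74, 64.2% for B2m, 69.5% for H2-D1 and 82.6% for Tapbp, beside a median of 47.5% over all genes tested. The means fell in the order heterozygous, null, wild type for 9 members, with Tapbp the exception. As the members varied together, these 9 are not separate observations, and the share of all genes with this order was not counted.

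The mean profiles of the classes were set side by side, as a description. After each gene was centred on its mean over the 7 arrays, the mean of the class II genes was -0.06, 0.55 and -0.93 on null, 1.86 and 0.08 on heterozygous and -1.06 and -0.44 on wild type arrays. The mean of the class I genes with their loading genes was 0.07, 0.32 and -0.57 on null, 0.88 and 0.19 on heterozygous and -0.90 and 0.01 on wild type arrays. On wild type replicate 2, all 4 class II genes lay below their own means, as did Tap1 (-0.37) and Psmb8 (-0.24), while H2-D1 (0.26), H2-K1 (0.15), Tapbp (0.14) and B2m (0.09) lay above theirs.

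The other probe sets of the members mostly showed the same order of arrays. In all, 29 probe sets name 1 member, from 1 each for H2-Eb1, Cd74 and Psmb8 to 9 for H2-D1, and 21 of them lay above the 30th percentile on every array. Of these 21, 11 were not the brightest of their gene. Heterozygous replicate 1 was the highest array for 10 of the 11, the exception being the second probe set of Tapbp. Wild type replicate 1 was the lowest for 8 of the 11. With the brightest probe sets counted too, these numbers were 20 and 16 of 21, and over all 29 probe sets they were 23 and 20. The second probe set of H2-Aa differed by 1.70 between heterozygous and wild type, against 2.25 for the brightest. The other probe sets of H2-Ab1 differed by 1.81 and 1.30, against 1.99, and the lower of these lay below the 30th percentile on 2 arrays. The 8 other probe sets of H2-D1 ran from -0.03 to 1.10, and the 3 of H2-K1 from 0.90 to 1.26. Of those of H2-D1, 2 lay below the 30th percentile on all arrays, the one at -0.03 among them. Those above it on every array ran from 0.27 to 1.10. The probe sets of Tap1 disagreed. Its second lay at 4.72 to 5.06, above the 30th percentile on 6 of 7 arrays, and differed by 0.10, against 1.46 for the brightest, and the 2 others, below that percentile on all arrays, differed by 0.07 and 0.19. H2 genes resemble each other closely in sequence, so probe sets can share targets, and values of single H2 genes are uncertain for that reason. Whether the probe sets read the H2 haplotypes of both strains equally was not tested, and an unequal reading would enter the differences between arrays. A further 14 probe sets name several H2 genes and were left out. Of these, 8 lay above the 30th percentile on every array, with heterozygous replicate 1 highest in 7 and wild type replicate 1 lowest in 6.

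Genes with the most similar course over the 7 arrays were sought among 1419 genes tested that are no member and had a range of at least 1, by the root mean square difference from the mean centred profile. Nearest to the class II profile were Ifi47 (0.19), Gbp3 (0.20), Psmb9 (0.21), Parp14 (0.24) and Gbp6 (0.30). Ifi47, an immunity-related GTPase, was at 8.58, 8.79 and 7.23 on null, 10.01 and 8.46 on heterozygous and 7.02 and 7.59 on wild type arrays. Gbp3 and Gbp6 are guanylate-binding proteins, and Psmb9 is an immunoproteasome subunit like Psmb8. Psmb9 was at 7.67, 7.94 and 6.81 on null, 9.23 and 7.69 on heterozygous and 6.36 and 7.51 on wild type arrays.

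Nearest to the class I profile were Cd274 (0.19), Rtp4 (0.20), Irf7 (0.22), Ifit3 (0.25) and Irf9 (0.25). Cd274, the checkpoint ligand PD-L1, was at 6.36, 6.44 and 5.83 on null, 7.36 and 6.04 on heterozygous and 5.31 and 6.16 on wild type arrays. Irf7 and Irf9 are interferon regulatory factors and Ifit3 is an interferon-induced protein. The same measure was 0.14 for H2-Eb1 and 0.32 for Cd74 within the class II profile, and 0.12 for H2-K1 and 0.43 for Tapbp within the class I profile. Cd74 lay at 0.28 from the class I profile, nearer than to that of its own class. Psmb8 and Tap1 lay at 0.29 and 0.30 from the class II profile and at 0.48 and 0.23 from the class I profile. Since these 10 neighbours were chosen by their course over the arrays, their differences between genotypes, 0.61 for Irf9 to 1.93 for Ifi47 in heterozygous against wild type, are a description.

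**Figure D3:**
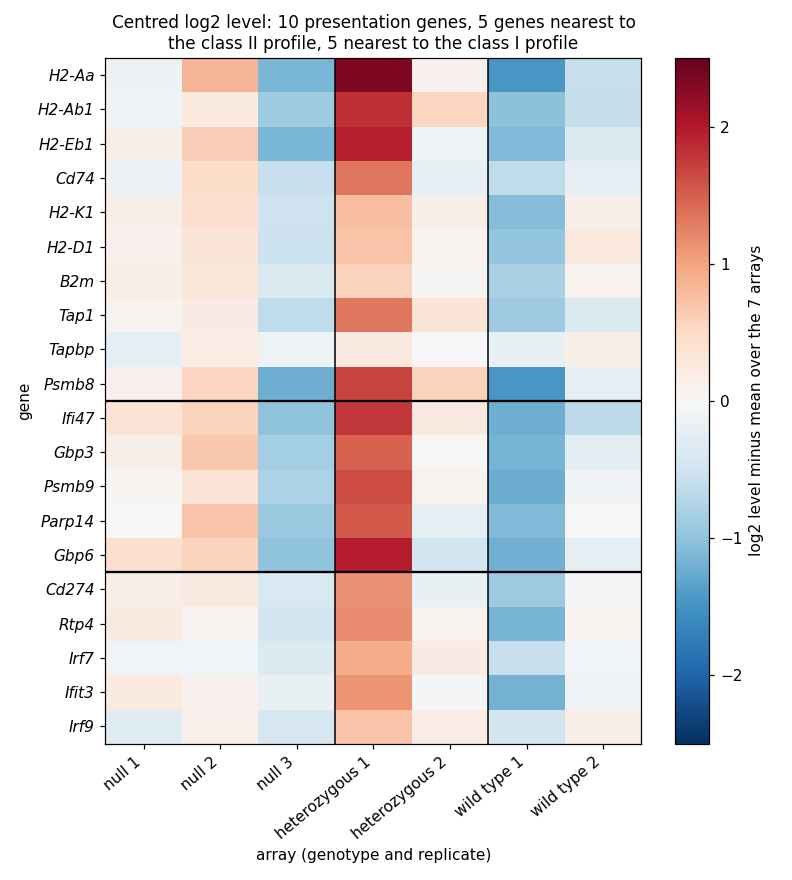
Log2 level minus the gene's mean over the 7 arrays (colour, red above and blue below the mean) for the 10 antigen presentation genes, the 5 genes nearest to the class II profile and the 5 nearest to the class I profile (rows) on each array (columns). The column of heterozygous replicate 1 is red in every row, and those of null replicate 3 and wild type replicate 1 are blue in every row.

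Other genes of the pathways were described from lists. Of the other class I pathway genes, 15 of 26 were on the array and 12 were tested, with 0 called in any pair of genotypes and a median of 0.11 in heterozygous against wild type. The 4 with the smallest F test p were Psmb10, an immunoproteasome subunit, at 0.61 (adjusted p = 0.093), Psmb9 at 1.52 (adjusted p = 0.149), the chaperone calnexin, Canx, at -0.30 (adjusted p = 0.144) and Pdia3, which folds heavy chains, at -0.16. Without both arrays named above Psmb10 was at 0.36 and Psmb9 at 0.75. Of 15 other class II pathway genes tested, Ctss alone passed. Of all genes, 10.1% were called in heterozygous against wild type and 8.96% in null against heterozygous. Ctss, the protease cathepsin S that removes the invariant chain, is also a macrophage marker. It was at 7.79, 8.52 and 7.81 on null, 9.49 and 9.64 on heterozygous and 8.11 and 7.46 on wild type arrays. Its differences were 1.78 in heterozygous against wild type (adjusted p = 0.018) and -1.52 in null against heterozygous (adjusted p = 0.0245). Next by the F test were Nfyb, a subunit of the factor that binds CCAAT, at 0.35, and the cathepsins Ctsl at 0.44 and Ctsb at -0.24 in heterozygous against wild type (adjusted p = 0.113, 0.115 and 0.347). Ctsb was at -0.02 without both arrays. Ciita, the class II coactivator, was not tested since it lay below the filter on dim genes, at 4.25 to 4.88 on all arrays. The constitutive proteasome had 3 of 14 genes called higher in heterozygous than in wild type, Psma3 (0.42), Psmb3 (0.53) and Psmb1 (0.41), and 0 lower. Of all genes 4.2% were called higher, and the median of the 14 was 0.34. Psma1 was at 0.37 (adjusted p = 0.0746).

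Genes of interferon signalling and response followed, on average, the order of arrays seen for the members. Of 29 tested, 4 were called higher and 1 lower in heterozygous against wild type, with a median of 0.89. Of all genes, 10.1% were called in this comparison and 4.2% were called higher. The higher genes were Ifitm3 (3.02), an antiviral membrane protein, Gbp2 (2.68), Mx2 (0.79) and Irf8 (0.91), a regulatory factor that macrophages also express, and the lower gene was Ifit2 (-0.50). In null against heterozygous, Ifitm3 (-2.29) and Gbp2 (-1.73) were lower, where 8.96% of all genes were called. In null against wild type 0 of 29 were called. Heterozygous replicate 1 was the highest array for 22 of the 29, against 20% of all genes. Wild type replicate 1 was the lowest for 16, against 11.7%. The mean centred level of the list was 0.05, 0.09 and -0.34 on null, 0.91 and 0.06 on heterozygous and -0.62 and -0.15 on wild type arrays. With heterozygous replicate 1 and null replicate 1 left out, the list's median in heterozygous against wild type was 0.35. Ifng, the cytokine itself, lay below the filter, at 2.70 to 3.17. The list holds Gbp3, Gbp6, Irf7, Ifit3 and Irf9, which were also chosen above as neighbours of the members' profiles. The part of interferon in the members' values was not tested.

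Markers of microglia and macrophages, which make class II molecules, were higher in heterozygous arrays, in another order of arrays. Of 22 tested, 16 were called higher and 0 lower in heterozygous against wild type, where 4.2% of all genes were called higher. The median difference was 1.31. In null against heterozygous 11 were lower and 0 higher, where 8.96% of all genes were called in either direction. Ptprc, Cd68 and Cd14 lay below the 30th percentile on every null and wild type array. They passed the filter only through the heterozygous arrays, so their higher level there was set by the filter. Ptprc, the leukocyte antigen CD45, was at 4.33, 4.58 and 4.53 on null, 5.88 and 5.62 on heterozygous and 4.32 and 4.38 on wild type arrays. The markers that rose were Ptprc, Cd53 (1.72), Cd68 (0.93), Laptm5 (1.33), Csf1r, Ctss, C1qa, C1qb, Cd14, Adgre1, Cx3cr1, Fcer1g, Fcgr3, Tyrobp, Ly86 (2.11) and Tmem119 (0.56), and the last 2 hold the largest and the smallest difference of the 16. Csf1r, the receptor for colony-stimulating factor 1, was at 7.48, 7.74 and 7.65 on null, 8.58 and 9.13 on heterozygous and 7.76 and 7.38 on wild type arrays. Heterozygous replicate 2 was the highest array for 19 of the 22 markers and heterozygous replicate 1 for 2, whereas all 10 members were highest on heterozygous replicate 1. The summed linear level of the 25 markers on the array was 1385 to 2007 on null, 3131 to 4264 on heterozygous and 1193 to 1601 on wild type arrays. Of the 25, 17 to 18 lay above the 30th percentile on null, 21 to 23 on heterozygous and 15 on wild type arrays. With heterozygous replicate 1 and null replicate 1 left out the median in heterozygous against wild type was 1.596. Itgam lay below the filter, at 3.36 to 4.35. All samples were sorted on GFP, a gate meant to leave out cells that the virus had not entered, and the labels give no purity. The part of these cells in the members' values was not tested.

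Markers of dendritic and B cells, the other cells that make class II molecules, were mostly dim. Most lay below the filter, so their similar sums do not show that levels were even. Of 11 on the array 3 were tested and 0 called, and their summed level was 209.4 to 238.4 on null, 210.0 to 228.4 on heterozygous and 201.4 to 210.1 on wild type arrays. The 3 tested, Batf3, Flt3 and Zbtb46, differed by 0.40, 0.03 and -0.21 in heterozygous against wild type, and by 0.24, -0.03 and -0.39 without both arrays. Batf3 was highest on heterozygous replicate 1, at 5.86, and Flt3 and Zbtb46 on null replicate 1, at 4.92 and 5.33. Itgax was at 4.38 to 4.72 and Cd79a at 3.68 to 3.86. For T and NK cells, 4 of 12 on the array were tested and 0 called, with sums of 311.0 to 346.7 on null, 299.7 to 308.1 on heterozygous and 310.1 to 314.9 on wild type arrays. The 4, Cd3e, Prf1, Cd4 and Cd8a, differed by -0.21 to 0.28, and Cd3d was at 4.18 to 4.72. Of 7 endothelial markers tested 0 were called, with Kdr, Flt1, Cldn5 and Esam at -0.25 to 0.19.

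Markers of neural cells also differed between heterozygous and wild type arrays, where 10.1% of all genes were called and 4.2% were called higher. Of 10 astrocyte markers 3 were called higher, Gfap, the glial filament protein (1.49, adjusted p = 0.0086), Sox9 (1.34) and Aldh1l1 (1.46). S100b was called lower (-0.76). The list was mixed, since 5 of the 10 differences were above 0, with a median of 0.59. In null against heterozygous Gfap, Sox9, Aldh1l1 and Aqp4, a water channel (-2.201), were lower and S100b higher, where 8.96% of all genes were called. Aldh1l1 lay below the percentile of the filter on every null and wild type array. It passed the filter only through the heterozygous arrays, so its higher level there was set by the filter. Gfap was at 5.24, 5.30 and 4.92 on null, 6.73 and 6.50 on heterozygous and 5.30 and 4.95 on wild type arrays. The summed level of the 10 was 10964 to 13461 on null, 9124 to 12087 on heterozygous and 10733 to 11813 on wild type arrays. Of 6 neuron markers tested, Snap25, a protein of synapses (-0.84), and Gad1, which makes the transmitter GABA (-1.24), were called lower, and 0 were called higher. The neuron list was mixed too, with 3 of the 6 differences above 0, Nefl among them, and a median of -0.207. Without heterozygous replicate 1 and null replicate 1, 2 of the 6 were above 0, with a median of -0.18. Syn1 (-0.45) and Tubb3 (0.52) were not called, and were at -0.24 and 1.01 without both arrays. The 9 neuron markers on the array summed to 2531 to 2831 on null, 1411 to 1875 on heterozygous and 2599 to 2793 on wild type arrays. Snap25 and Gad1 were the brightest of the 9 and carried most of these sums. The part of these cells in the members' values was not tested.

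The tumour's own markers of oligodendrocyte progenitors, 10 of 10 above the 30th percentile on every array, summed to 49186 to 52401 on null, 33224 to 41356 on heterozygous and 54913 to 55201 on wild type arrays. Pdgfra, the receptor of the injected PDGFB, was at 13.52, 13.65 and 13.57 on null, 12.90 and 13.27 on heterozygous and 13.74 and 13.72 on wild type arrays, and was lower in heterozygous than in wild type by 0.65 on the log2 scale (adjusted p = 0.0368). Dll3 (-0.75), Olig2 (-0.67), Bcan (-0.73), Cspg5 (-0.84) and Ptprz1 (-0.61) were lower too. Thus 6 of 10 were called lower, where 10.1% of all genes were called in either direction and 4.2% were called higher. Nes, the gene of Nestin, was higher, by 0.89 (adjusted p = 0.0418), and at 0.57 without both arrays. The summed level, which the brightest genes carry, was thus lowest on the heterozygous arrays. The part of these markers in the members' values was not tested.

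**Figure D4:**
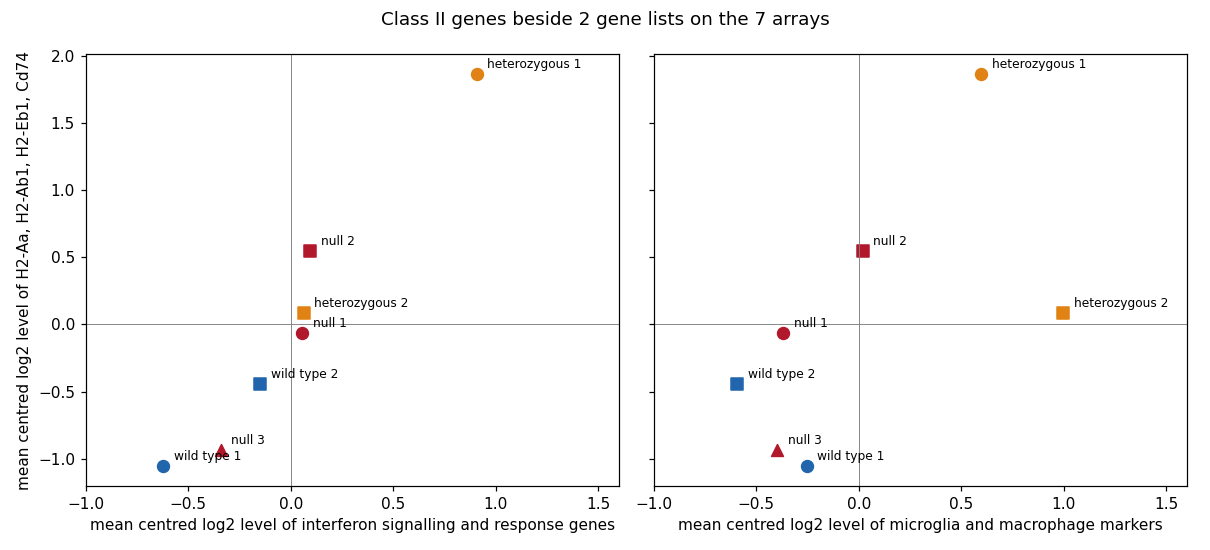
Mean centred log2 level of H2-Aa, H2-Ab1, H2-Eb1 and Cd74 (y axis) against that of the interferon list (left, x axis) and of the microglia and macrophage markers (right, x axis), 1 point per array, with colours for genotypes and shapes for replicate numbers. Heterozygous replicate 1 is farthest right for interferon genes, at 0.91, and heterozygous replicate 2 for macrophage markers, at 1.00, where its class II level is 0.08.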

How the data were processed

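RNA of 7 sorted tumour samples was measured on Affymetrix arrays per the labels' protocols, starting from 75 ng of RNA and a 3' priming kit. The authors deposited log2 values. RMA and Partek 6.6 are named in the submitters' processing notes. RMA gives all arrays a common distribution, which hides any shift shared by all genes.

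Of 22690 probe sets, 64 were controls and 20380 named 1 gene in the platform annotation, and 1555 were unnamed. Genes whose brightest probe set lay above the array's 30th percentile on at least 2 arrays were tested, which left 9243 and set aside 3150. Limma 3.58.1 in R 4.3.3 fitted a mean per genotype to all 7 arrays (4 residual degrees of freedom), with moderated two-sided tests of each pair, an F test and Benjamini-Hochberg adjustment over all genes tested. The spread behind the p-values is that between arrays the labels call biological replicates, and precision is limited by how few there are. Simulated data with known changes served to check the fit. Summaries used Python 3.11.15. The 10 genes, the lists and the motifs were chosen with earlier results of these data known. Named from each list were up to 4 genes with the smallest F test p and any called in a pair, and other genes were chosen by name. The alternatives were other filters, probe set rules, moderation, samples, covariates and arrays.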

Additional observations from a re-analysis of the deposited data

How the results depend on the processing

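Of the 17 alternatives, the number of members called stayed 0 in null against wild type, in null against heterozygous and in the F test wherever these were run. The 1 call in heterozygous against wild type, H2-Ab1, was 0 calls with no filter on dim genes (limma's adjusted p of H2-Ab1 0.058), with the mean of probe sets (0.0599), with no moderation (0.174), with only the compared groups in the fit (0.091) and with heterozygous replicate 1 and null replicate 1 left out (0.283). With probe sets whose names end in _x_at, _s_at or _a_at left out, H2-Ab1 was not tested, and 0 of the 4 members that remained were called. It was 0 to 2 calls when each array was left out in turn, where a lone array was assumed to vary like the other groups. It stayed 1 call when the filter was set at the 50th percentile, with trend and robust moderation and with the 3' to 5' covariate. The replicate numbers were tried as a block, although same-numbered arrays deviated together in no regular way (correlations from -0.41 to 0.11). With this replicate block H2-Ab1 had an adjusted p of 0.0813, 0 members were called, and the medians were 0.77 in null against wild type, 1.24 in heterozygous against wild type and -0.48 in null against heterozygous. The median in null against heterozygous ran from -1.43 to -0.13 over the arrays left out. The calls over all genes in heterozygous against wild type were 938, against 217 with the block, 97 with no moderation, 172 with only the compared groups, 372 with the covariate, 0 without heterozygous replicate 1 and null replicate 1, and 33 to 802 over the arrays left out in turn. In null against heterozygous they were 828, against 25, 2, 355, 469, 0 and 90 to 732 in the same order, and in the F test 522, against 29 with the block, 21 with no moderation, 217 with the covariate, 821 with trend and robust moderation, 0 without both arrays and 34 to 470 over the arrays left out.

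Directions turned for some differences, none of which had been called with all arrays. Over the arrays left out, null minus wild type ran from -0.29 to 0.93 for H2-D1, -0.13 to 1.11 for H2-K1, -0.054 to 0.84 for B2m and -0.20 to 0.12 for Tapbp. Heterozygous minus wild type ran from -0.031 to 0.30 for Tapbp, and null minus heterozygous from -0.55 to 0.0051 for B2m and -1.43 to 0.12 for Cd74. With heterozygous replicate 1 and null replicate 1 left out together, Tapbp was at 0.043 in null minus wild type and 0.035 in null minus heterozygous, and Cd74 at 0.15 in null minus heterozygous. Tapbp in null minus wild type was also at 0.024 with the mean of probe sets and 0.042 with the covariate. In each case the cause was not tested. The values of the gene lists, their genes and Ptprd without heterozygous replicate 1 and null replicate 1 were added after seeing the data.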
